A study of Homo sapiens with 6 samples.

Results

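LIN28B, the genes it is linked to through the let-7 microRNAs and the oncofetal RNA-binding proteins of the IGF2BP family were followed in the human chondrosarcoma line SW1353, an established line from a malignant cartilage-forming tumour. The set held 10 of the 60691 genes in the count table: LIN28B, TRIM71, DICER1, HMGA1, HMGA2, IGF2BP1, IGF2BP2, IGF2BP3, ARID3A and ARID3B. LIN28B was chosen by its fold change in this same comparison, so its values are given as a description with no test. The other 9 were chosen as known let-7 targets or partners of LIN28B, with earlier results of these data known. RNA was sequenced from 3 shfirefly libraries, whose cells carried a lentiviral short hairpin against firefly luciferase, and from 3 shSIRT1 libraries, whose cells carried one labelled shSIRT1 (SIRT1 is a protein deacetylase that consumes NAD+). Both groups were SW1353 cells grown in 3% oxygen, collected 48 h after seeding, so the controls carry the low oxygen and a hairpin too. The labels describe the 3 libraries of each group as biological replicates and name 1 cell line and 1 hairpin per group, so an effect of the target and an effect of the hairpin's sequence cannot be told apart. The study's question was the part that SIRT1 plays in the transcription programme of HIF-2α, which EPAS1 encodes.

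The sample titles, the treatment field and the design text name SIRT1 as the hairpin's target, whereas the treatment protocol names EPAS1. SIRT1 read 26.0, 24.8 and 24.0 CPM (counts scaled to a fixed effective library size) in the shfirefly libraries and 12.9, 13.2 and 14.7 CPM in the shSIRT1 libraries. EPAS1 fell as well, from 456 ± 40.8 to 233 ± 10.5 CPM (mean ± SD, n = 3). The libraries held 24993064 to 32044191 counts, and 8760 of 16591 tested genes passed the threshold (adjusted p under 0.05, edgeR's quasi-likelihood test with Benjamini-Hochberg adjustment). That is 52.8% of tested genes, 26.8% higher and 26.0% lower in shSIRT1, and every count below should be read against these shares. Of the cartilage markers, SOX9, the chondrocyte transcription factor, was present at 43.7 and 53.1 CPM in the 2 groups, while COL2A1, the main cartilage collagen, stood at 0.0340 and 0.332 CPM and COL9A1 had no counts. Of 8 such markers tested, 3 were higher and 3 lower in shSIRT1. HAPLN1 fell from 8.08 to 4.28 CPM and ACAN from 1.51 to 0.679 CPM, while MATN3 rose from 3.78 to 4.81 CPM.

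LIN28A and LIN28B are RNA-binding proteins of embryonic cells that bind let-7 precursors and block their processing, directly or by recruiting enzymes that add uridines to them. Mature let-7 microRNAs in turn pair through their seed with sites in the 3' UTRs of LIN28B, HMGA2, TRIM71, the IGF2BP genes and others and lower their mRNA and protein, so LIN28B and let-7 repress each other. These target genes are high in the embryo, low in most adult tissues and switched on again in a range of tumours. The libraries were made from polyadenylated RNA, so mature let-7 was not measured.

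The 12 human let-7 and miR-98 loci in RefSeq (GRCh38.p14) give 9 distinct mature 5p sequences, and all share the seed GAGGUAG at bases 2 to 8. Examples follow because their host genes or their spread of sequence bear on the results, 5' to 3', with the seed in capitals.
hsa-let-7a-5p: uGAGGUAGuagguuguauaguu
hsa-let-7b-5p: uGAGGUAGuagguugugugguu
hsa-let-7g-5p: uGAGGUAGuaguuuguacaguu
hsa-let-7i-5p: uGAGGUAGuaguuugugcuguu
hsa-miR-98-5p: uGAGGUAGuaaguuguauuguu
These sequences are the same through the seed and differ in bases beyond it.

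Matches to this seed were searched on the transcript strand of the 3' UTR of each gene's main coding transcript (GENCODE 29, GRCh38). An 8mer is CTACCTCA, a 7mer-m8 is CTACCTC without the final A, and a 7mer-A1 is TACCTCA without the first C, each site being counted once as the longest kind it makes. All 10 members held at least 1 match and 7 held an 8mer, with 13 8mers, 11 7mer-m8 and 15 7mer-A1 matches in all. Among 13003 tested coding genes with a 3' UTR, 3.76% held an 8mer, 6.62% a 7mer-m8, 7.71% a 7mer-A1 and 16.1% any of these. In the tercile of genes with the longest 3' UTRs, 1839 to 32870 bases, the share with any match was 32.4%. Most members were chosen as let-7 targets, so their matches describe the choice. A match is a stretch of letters and not a measured binding site.

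The sites below end in the match, in capitals, and are written 5' to 3' on the mRNA strand with GRCh38 coordinates; all lie in the 3' UTR of the named gene, and they are shown because they are the longest kind each member holds.
LIN28B at base 44 after the stop codon, chr6:105078805-105078834, plus strand: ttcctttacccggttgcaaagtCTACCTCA
LIN28B at base 2653, chr6:105081414-105081443, plus strand: ttactctgtttacagcaaaaggCTACCTCA
TRIM71 at base 172, chr3:32891961-32891990, plus strand: aaagtacaacattgcttaagtcCTACCTCA
TRIM71 at base 252, chr3:32892041-32892070, plus strand: cctgtgaagtgataatttctatCTACCTCA
IGF2BP1 at base 1632, chr17:49051054-49051083, plus strand: gcaatgctgtgtgcgaagtaaaCTACCTCA
IGF2BP1 at base 4269, chr17:49053691-49053720, plus strand: tgggaaccagcagtgctagtaaCTACCTCA
IGF2BP1 at base 4923, chr17:49054345-49054374, plus strand: gctacgagtataaatggattaaCTACCTCA
HMGA2 at base 21, chr12:65963293-65963320, plus strand: ggggcgccaacgttcgatttCTACCTCA
IGF2BP2 at base 1304, chr3:185644220-185644249, minus strand: cgagaaaaacacacagaagaagCTACCTCA
IGF2BP3 at base 560, chr7:23311795-23311824, minus strand: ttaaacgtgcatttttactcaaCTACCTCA
ARID3A at base 2461, chr19:974504-974533, plus strand: agcgcctgctgcctatctctgtCTACCTCA
HMGA1 at base 960, chr6:34245822-34245851, plus strand: ccatttttcctctgttcacaaaCTACCTCt
ARID3B at base 2342, chr15:74598094-74598123, plus strand: atgtttatatttcaataaacctCTACCTCt
DICER1 at base 1357, chr14:95089135-95089164, minus strand: cttgtaggcactcttcacttaaaTACCTCA
The bases before the match differ from site to site, also between the 3 sites of IGF2BP1.

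**Figure D1:**
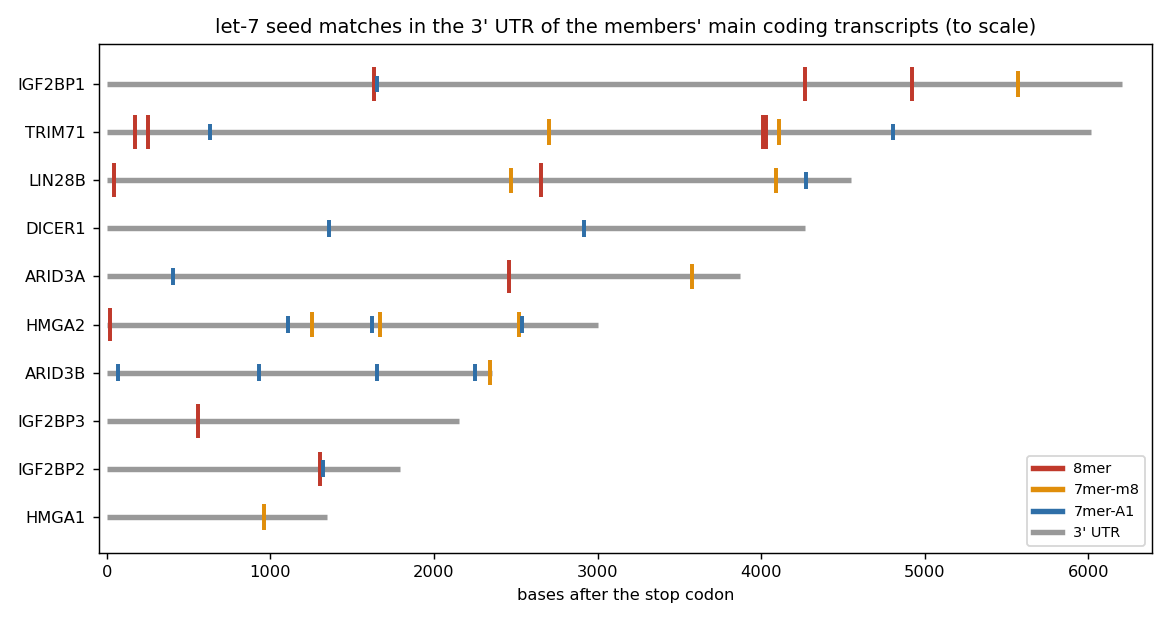
Positions of let-7 seed matches (ticks: tall red 8mer, orange 7mer-m8, short blue 7mer-A1) along the 3' UTR (grey bars, to scale) of each member's main coding transcript; the x axis is the distance from the stop codon in bases. TRIM71 holds 4 8mers, IGF2BP1 holds 3 and LIN28B holds 2, while DICER1 holds 7mer-A1 matches alone.

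LIN28B (ENSG00000187772.8, chr6:104936616-105083332, plus strand) had 36, 40 and 44 counts in the shfirefly libraries and 142, 145 and 143 counts in the shSIRT1 libraries. On the CPM scale these were 1.17, 1.48 and 1.42 against 4.63, 4.73 and 5.46. All 3 shSIRT1 libraries lay above all 3 shfirefly libraries, and the 2 groups' means were 1.36 ± 0.163 and 4.94 ± 0.456 CPM (SD, n = 3). The log2 fold change was 1.86 ± 0.17 (SE), a 3.63-fold higher level, and the ratio of summed counts was 3.63 with a 95% exact interval of 2.96 to 4.49 that covers counting error only. In bulk RNA, more cells expressing a gene and more RNA per cell cannot be told apart, nor can fewer cells and less RNA per cell. With a correction for transcript GC content and length the log2 fold change was 1.64.

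LIN28A, the paralogue that shares LIN28B's role, had 7, 5 and 5 counts in shfirefly and 7, 17 and 12 counts in shSIRT1 and was too low to enter the test. Its count ratio was 2.15 with a 95% exact interval of 1.18 to 4.08 that covers counting error only. In the authors' deposited comparison the adjusted p of LIN28A was 0.23. Per kilobase of merged exons, LIN28B made up 82.4% ± 4.31 of the summed LIN28A and LIN28B level in shfirefly and 89.0% ± 4.03 in shSIRT1 (SD, n = 3). The library values of these shares overlapped between the 2 groups. LIN28B-AS1, annotated on the strand opposite LIN28B, had 0 counts in all 6 libraries, which allows up to 0.0968 to 0.115 CPM per library.

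TRIM71 passed the filter on low counts only through its shSIRT1 counts, so it is described without a test and left out of the tally. Of the 8 members other than LIN28B and TRIM71, 6 rose in shSIRT1, 1 fell and 1 did not pass, against 26.8% higher and 26.0% lower among all tested genes. The members were chosen with earlier results of these data known, so this tally is a description and not an independent finding. In each of the 8 the 3 libraries of one group all lay on one side of the other group's, as they did in 59.7% of tested genes. All 10 members passed the filter. The members that rose were IGF2BP1, DICER1, ARID3B, HMGA2, HMGA1 and IGF2BP3, ARID3A fell, and IGF2BP2 did not pass. Those that rose were 4.03-fold (IGF2BP1) to 1.12-fold (IGF2BP3) higher. In the authors' deposited table the same 6 were higher and ARID3A lower at an adjusted p under 0.05, with IGF2BP2 at an adjusted p of 0.077.

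**Figure D2:**
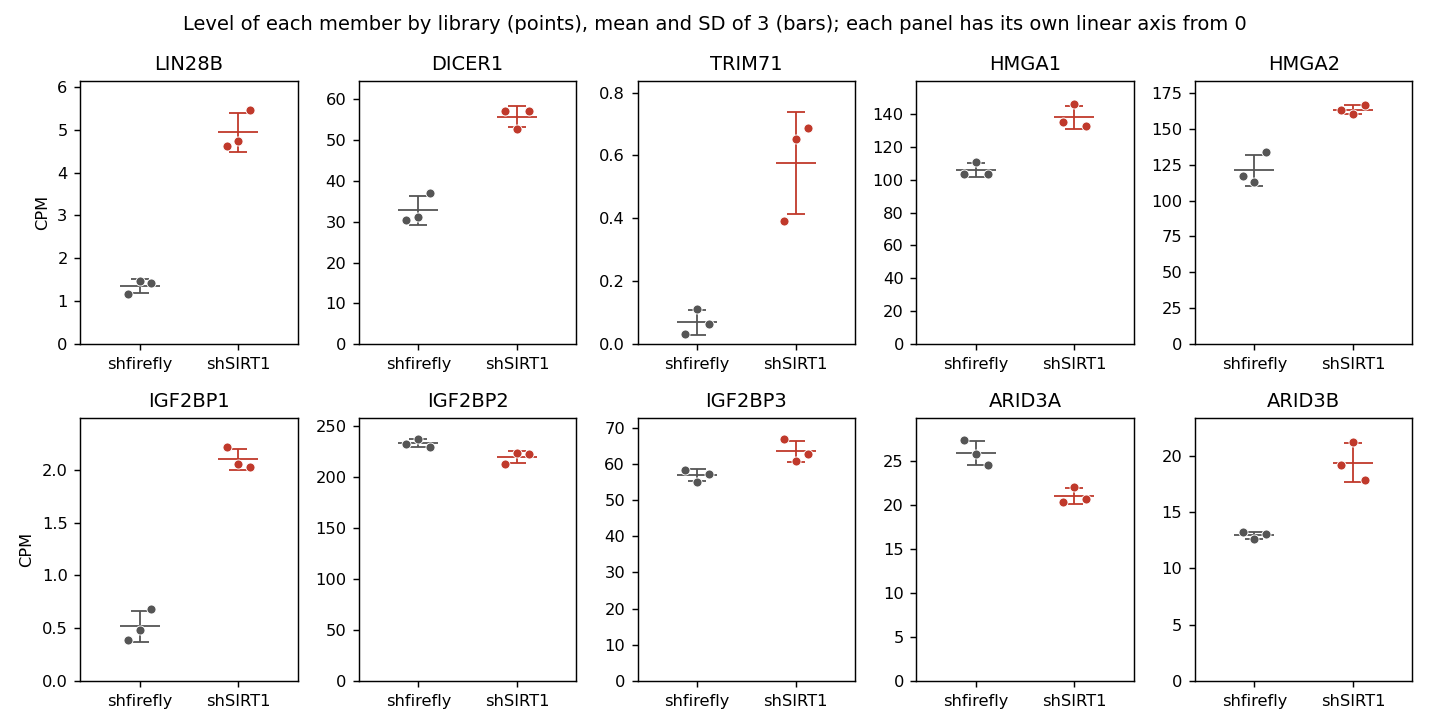
CPM of each member in each of the 6 libraries (points), with the mean and SD of the 3 libraries of a group (bars), on a linear axis from 0 that differs between panels. The shSIRT1 points of LIN28B, at 4.63 to 5.46 CPM, lie above its shfirefly points, at 1.17 to 1.48 CPM, and those of IGF2BP2 and ARID3A lie below theirs.

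TRIM71, also called LIN41, is an RNA-binding ubiquitin ligase of stem cells and one of the oldest known let-7 targets. It had 1, 3 and 2 counts in the shfirefly libraries and 12, 20 and 18 counts in the shSIRT1 libraries. Every shfirefly library was at or under 3 counts, and the lowest shSIRT1 library held 12. The count ratio was 8.45 with a 95% exact interval of 3.62 to 24.1 that covers counting error only. Per kilobase of merged exons it remained the lowest of the 10 members in both groups, at 0.00799 and 0.0665 CPM per kb. Its 3' UTR is 6015 bases long and holds 4 8mers, the most of any member.

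DICER1, the RNase that cuts let-7 and most other precursors into their mature form, read 30.4, 31.0 and 36.9 CPM in shfirefly and 57.0, 52.7 and 57.2 CPM in shSIRT1. The groups were well apart, with the highest control at 36.9 and the lowest shSIRT1 library at 52.7 CPM. The log2 fold change was 0.76 ± 0.07 (SE; adjusted p = 3.1e-08), or 0.53 after correcting for transcript GC and length, with the call kept. DICER1-AS1, an overlapping transcript on the opposite strand, had 52, 31 and 41 counts against 28, 30 and 24 and did not pass (log2 fold change -0.57, adjusted p = 0.07). DICER1 holds 2 7mer-A1 matches and no longer kind.

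HMGA1 and HMGA2 are architectural chromatin proteins that bind AT-rich DNA, and HMGA2 is a textbook let-7 target. HMGA2 read 117, 113 and 134 CPM in shfirefly and 163, 160 and 167 CPM in shSIRT1. The lowest shSIRT1 library was above the highest control, and the log2 fold change was 0.43 ± 0.05 (SE; adjusted p = 2.2e-06). HMGA1 read 103, 111 and 104 CPM against 135, 146 and 133 CPM. It too was higher in every shSIRT1 library, by 0.38 ± 0.04 on the log2 scale (SE; adjusted p = 2.5e-07). HMGA1 has processed pseudogene copies that could take or give reads, so its level is uncertain to that extent. HMGA2 holds 7 seed matches and HMGA1 holds 1. HMGA2 made up 14.7% ± 1.46 of their summed level per kilobase in shfirefly and 15.2% ± 0.881 in shSIRT1 (SD, n = 3), ranges that overlapped. These shares rest on merged exon lengths of 15403 bases for HMGA2 and 2327 for HMGA1. Without that scaling HMGA2 had the higher mean, at 121 against 106 CPM in shfirefly and 163 against 138 CPM in shSIRT1.

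HMGA2 shares its locus with RPSAP52, a transcribed pseudogene on the opposite strand. RPSAP52 had 1205, 1100 and 1250 counts in shfirefly and 670, 676 and 563 counts in shSIRT1. It fell in all 3 shSIRT1 libraries, with a log2 fold change of -0.88 (adjusted p = 4.2e-11), while HMGA2 rose. RPSAP52 has been described as a partner of IGF2BP2 that bears on the LIN28B and let-7 axis. It is a copy of RPSA, so reads of RPSA and its other copies may be split among them. The library kit keeps strand, but whether counting used it is not given in the sources used here, so reads of HMGA2 and RPSAP52 may be mixed. HMGA2-AS1, also on the opposite strand, had 3, 2 and 3 counts in shfirefly and none in shSIRT1, too few to test.

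The IGF2BP proteins bind mRNAs and protect them from decay, and IGF2BP1 and IGF2BP3 are the oncofetal members, while IGF2BP2 is also made in adult tissues. IGF2BP1 had 12, 13 and 21 counts in shfirefly and 68, 63 and 53 counts in shSIRT1, or 0.391, 0.481 and 0.678 CPM against 2.22, 2.06 and 2.03 CPM. Every shSIRT1 library was above every control, and the log2 fold change was 2.01 ± 0.27 (SE; adjusted p = 1.5e-06). The count ratio was 4.06 with a 95% exact interval of 2.92 to 5.73.

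IGF2BP3 read 58.3, 55.0 and 57.3 CPM in shfirefly and 66.8, 60.9 and 62.7 CPM in shSIRT1. It rose by 0.16 ± 0.05 on the log2 scale (SE; adjusted p = 0.0093), with no overlap of the groups. This call was lost after correcting for transcript GC and length, where the log2 fold change was 0.0084 (adjusted p = 0.9). It was also lost with upper-quartile scaling (adjusted p = 0.067) and without shSIRT1 replicate 1 (adjusted p = 0.076). MALSU1, a mitochondrial ribosome assembly gene that overlaps IGF2BP3 on the other strand, had a log2 fold change of 0.17 (adjusted p = 0.015) that was 0.02 with the same correction.

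IGF2BP2 read 233, 238 and 229 CPM in shfirefly and 212, 224 and 222 CPM in shSIRT1. The shSIRT1 values were all lower, at -0.09 ± 0.04 on the log2 scale (SE), and just missed the threshold (adjusted p = 0.0502). With library totals alone as the scaling its sign turned, to 0.03 (adjusted p = 0.42), and under 5 settings it passed as lower, among them RLE scaling (adjusted p = 0.0482) and the fit without shfirefly replicate 3 (adjusted p = 0.024).

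Per kilobase of merged exons, IGF2BP2 made up 88.0% ± 0.476 of the family's summed level in shfirefly and 85.7% ± 0.927 in shSIRT1 (SD, n = 3). IGF2BP1 made up 0.102% ± 0.0299 and 0.427% ± 0.0286, and IGF2BP3 made up 11.9% ± 0.469 and 13.8% ± 0.90. The 3 shares did not overlap between groups, and IGF2BP1 remained below 1% of the family in each library. The summed CPM of the 3 genes was 291 ± 3.02 in shfirefly and 285 ± 3.17 in shSIRT1.

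ARID3A and ARID3B are paralogous DNA-binding proteins that can form complexes with each other, and ARID3B is an established let-7 target. ARID3B read 13.2, 12.6 and 13.0 CPM in shfirefly and 19.1, 21.2 and 17.8 CPM in shSIRT1. It rose by 0.59 ± 0.08 on the log2 scale (SE; adjusted p = 2.6e-06), and every shSIRT1 library was above every control. ARID3A went the other way, from 27.4, 25.9 and 24.6 CPM to 20.4, 22.1 and 20.8 CPM. Its log2 fold change was -0.30 ± 0.07 (SE; adjusted p = 0.00072), and it was the 1 member that fell. ARID3A holds 1 8mer, 1 7mer-m8 and 1 7mer-A1, and ARID3B holds 1 7mer-m8 and 4 7mer-A1. Per kilobase, ARID3A made up 63.3% ± 1.2 of the pair in shfirefly and 48.4% ± 1.49 in shSIRT1 (SD, n = 3), with no overlap between groups.

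**Figure D3:**
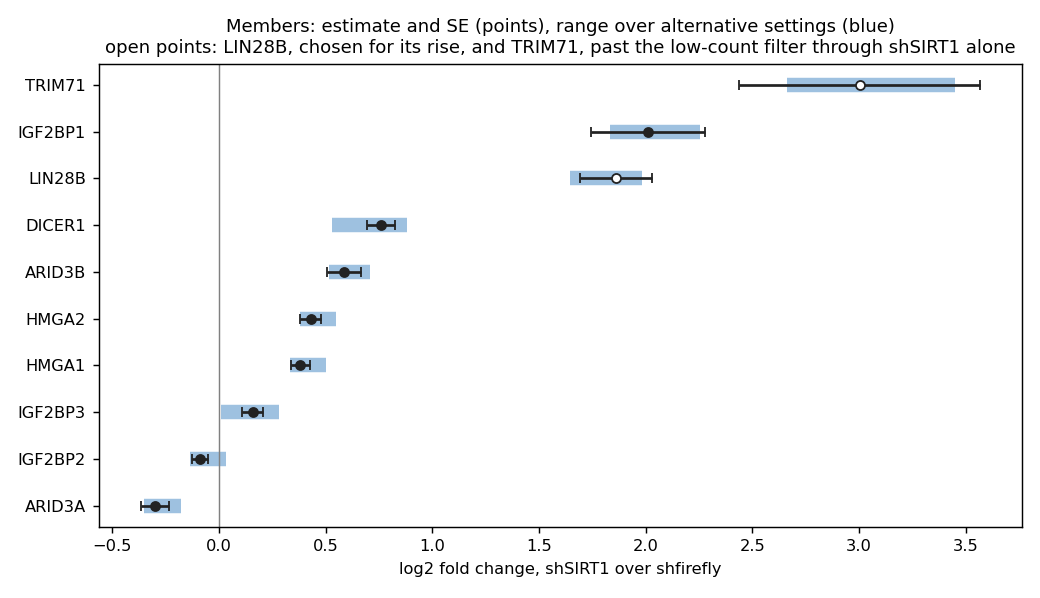
Log2 fold change, shSIRT1 over shfirefly, of each member (points, with SE) and the range of its estimate over 15 or 16 alternative settings (blue bands). Filled points run from -0.30 for ARID3A to 2.01 for IGF2BP1, and the band of IGF2BP2 crosses 0; the open points are LIN28B, chosen for its rise, and TRIM71, whose fitted value rests on 6 shfirefly counts.

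On the scale of CPM per kilobase of merged exons, which is only an approximation of the expressed isoform's length, IGF2BP2 at 49.2 and HMGA1 at 45.5 were the most abundant members in shfirefly. HMGA2 at 7.87, IGF2BP3 at 6.68, ARID3A at 3.60, DICER1 at 2.67 and ARID3B at 2.08 followed. LIN28B at 0.226 and IGF2BP1 at 0.0567 stood far below these, ahead of TRIM71 alone. No neighbours in this order had overlapping library values. In shSIRT1 the order was HMGA1 at 59.2, IGF2BP2 at 46.3, HMGA2 at 10.6, IGF2BP3 at 7.46, DICER1 at 4.53, ARID3B at 3.12, ARID3A at 2.92, LIN28B at 0.823, IGF2BP1 at 0.230 and TRIM71. There the values of ARID3B and ARID3A overlapped, and no other neighbours did. The order of HMGA1 and HMGA2 depended on the lengths used, since HMGA2 had the higher mean CPM in both groups. TRIM71, IGF2BP1 and LIN28B, with the highest count ratios, were the 3 members of the lowest level in both groups.

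Over the 6 libraries, the genes of at least 5 CPM whose log2 CPM was most like that of LIN28B were RAB1A, GOPC and SSX1 (Pearson r = 0.9993 each), SAPCD2 (r = 0.9991) and AMD1 (r = 0.9989). A gene picked for a high r with LIN28B, itself chosen for its rise, must rise too, so the direction of these 5 describes the choice. Their log2 fold changes ran from 0.39 for RAB1A to 1.16 for SSX1. The 6 points fall into 2 groups that share their cell line and preparation, and 2819 of 10810 genes had r above 0.9, so a high r was common in these libraries. None of the 5 holds an 8mer or a 7mer-m8, kinds that 9.86% of tested coding genes with a 3' UTR hold. GOPC holds 1 7mer-A1. Among the members, r with LIN28B was 0.981 for IGF2BP1 and TRIM71, 0.974 for DICER1, 0.956 for HMGA1 and 0.948 for HMGA2. It was 0.938 for ARID3B, 0.819 for IGF2BP3, -0.809 for IGF2BP2 and -0.953 for ARID3A. With 2 separate groups, the sign of r restates each member's direction.

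The let-7 precursors themselves are short and lack a poly(A) tail, and 8 counts in all fell on 4 of the 12 loci. Host transcripts that span a locus on the same strand were measured for 9 of the 12 loci, and the host of let-7a-1, let-7d and let-7f-1 was not analysed here. These hosts did not move one way. MIRLET7BHG, the host of let-7a-3 and let-7b, read 5.67, 6.44 and 5.61 CPM in shfirefly and 7.66, 8.55 and 9.17 CPM in shSIRT1, a rise of 0.52 ± 0.11 on the log2 scale (SE; adjusted p = 0.0005). WDR82, a histone methyltransferase subunit gene that spans let-7g, rose by 0.27 ± 0.04 (SE; adjusted p = 4e-06). MIR100HG, which spans let-7a-2, fell from 141, 140 and 142 CPM to 114, 100 and 126 CPM, a log2 fold change of -0.31 ± 0.07 (SE; adjusted p = 0.0057). That call was lost with library totals alone (adjusted p = 0.088) and without shfirefly replicate 3 (adjusted p = 0.06).

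HUWE1, which spans miR-98 and let-7f-2, did not pass, with a log2 fold change of 0.04 (adjusted p = 0.49). SPACA6 with let-7e (-0.0011, adjusted p = 0.99) and AC048341.1 with let-7i (-0.14, adjusted p = 0.39) did not pass either. MIR99AHG, the host of let-7c, had 3 counts over all libraries and was not tested. MIRLET7A1HG, which is named for let-7a-1 but spans no let-7 locus in this table, was at 0.01 (adjusted p = 0.97). LINC01465, on the strand opposite let-7i, was at 0.08 (adjusted p = 0.88).

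The other genes of let-7 biogenesis and the LIN28 partners were read as a list of 28. Without DICER1 and TRIM71, 25 were tested, of which 16 rose (64.0%, against 26.8% of all tested genes), 1 fell (4.0%, against 26.0%) and 8 did not pass. Their median log2 fold change was 0.24, and that of all tested genes was 0.0047. In the nucleus, the 2 subunits of the complex that makes precursors, DROSHA (0.42, adjusted p = 3.1e-08) and DGCR8 (0.54, adjusted p = 1.8e-07), rose together with the helicase DDX5 (0.56, adjusted p = 1.6e-10). DDX17, the paralogue of DDX5, was at 0.05 (adjusted p = 0.32). The export factor XPO5 rose by 0.43 (adjusted p = 1.9e-07) and the RNA editing enzyme ADAR by 0.26 (adjusted p = 2e-05).

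Of the 2 RNA-binding partners of DICER1, TARBP2 rose by 0.42 (adjusted p = 2.4e-05), and PRKRA was at -0.08 (adjusted p = 0.21). Of the Argonautes, which hold the mature microRNA, AGO2, the one with slicing activity, rose by 0.44 (adjusted p = 2.7e-08). AGO1 at -0.13 (adjusted p = 0.082), AGO3 at 0.11 (adjusted p = 0.19) and AGO4 at -0.07 (adjusted p = 0.43) did not pass. The 3 GW182 proteins that join Argonautes to the deadenylases rose, TNRC6A by 0.53 (adjusted p = 1.8e-09), TNRC6B by 0.25 (adjusted p = 0.0013) and TNRC6C by 0.24 (adjusted p = 0.024). TNRC6B lost its call with the GC and length correction (adjusted p = 0.13), and TNRC6C lost its call under DESeq2 (adjusted p = 0.073), under upper-quartile scaling and without any 1 of 3 libraries, shfirefly 1, shSIRT1 2 and shSIRT1 3 (adjusted p from 0.079 to 0.2).

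The uridyl transferases TUT4 and TUT7, which LIN28 proteins can recruit to let-7 precursors, rose by 0.51 ± 0.14 (SE; adjusted p = 0.023) and 0.22 ± 0.07 (SE; adjusted p = 0.016). TUT4 lost its call without shSIRT1 replicate 1 (adjusted p = 0.092) and without shfirefly replicate 2 (adjusted p = 0.091). TUT7 lost its call under 7 settings, among them the GC and length correction, at 0.06 (adjusted p = 0.47). DIS3L2, the nuclease that degrades uridylated let-7 precursors, rose by 0.23 (adjusted p = 0.0043). Among proteins that bind let-7 precursors or LIN28 targets, KHSRP rose by 0.25 (adjusted p = 1.9e-05) and SYNCRIP by 0.53 (adjusted p = 2.5e-10). HNRNPA1, at -0.0029 (adjusted p = 0.95), and MSI2, at -0.12 (adjusted p = 0.068), did not pass. The deadenylase PARN rose by 0.23 (adjusted p = 0.00051), TENT2 was at 0.07 (adjusted p = 0.31), and the splicing factor RBM5 was the 1 gene of the list that fell, at -0.26 (adjusted p = 2.6e-05).

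**Figure D4:**
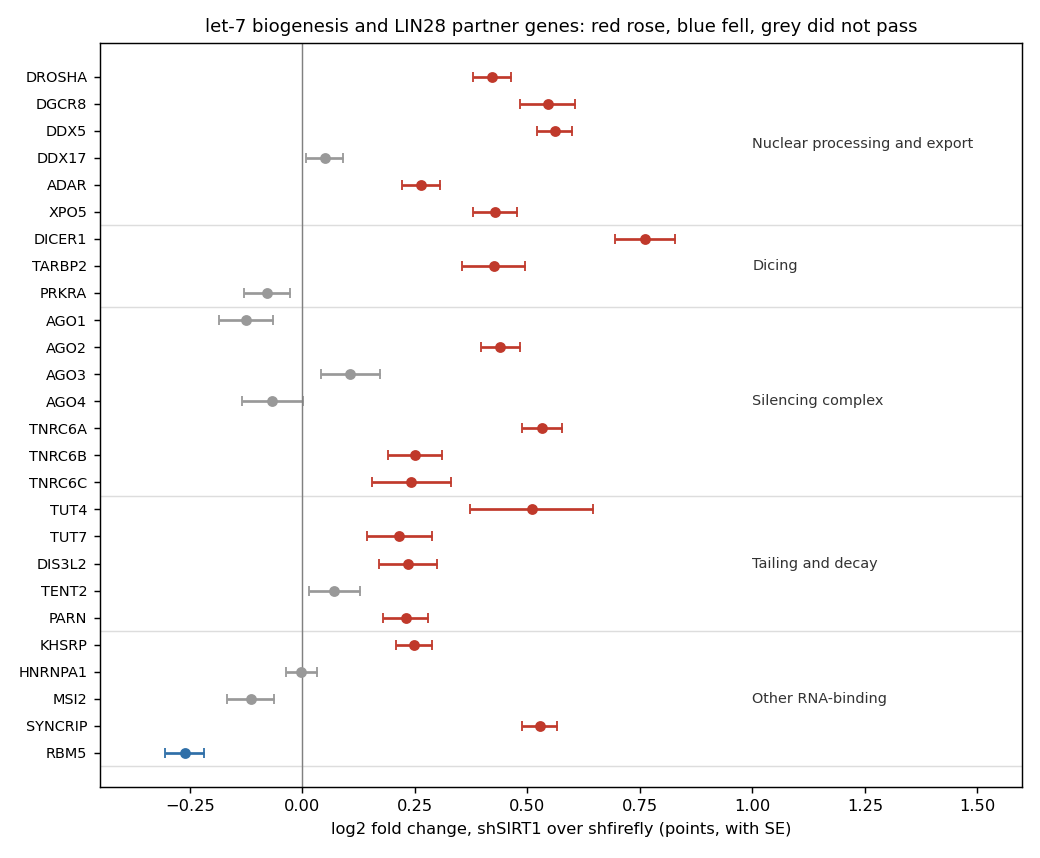
Log2 fold change, shSIRT1 over shfirefly (points, with SE), of the let-7 biogenesis and LIN28 partner genes by role, with DICER1 shown among them; red genes rose, blue fell and grey did not pass. DROSHA, DGCR8, XPO5, TARBP2 and AGO2 lie between 0.42 and 0.54, and AGO1, AGO3, AGO4 and PRKRA lie near 0.

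A longer list of other described let-7 targets held 84 genes, of which 74 were tested. Of these 36 rose (48.6%, against 26.8%), 15 fell (20.3%, against 26.0%) and 23 did not pass, with a median log2 fold change of 0.18 against 0.0047 for all tested genes. IL6 is counted among the lower genes, with 23, 17 and 11 counts in shfirefly and 2, 1 and 6 in shSIRT1. It passed the filter on low counts only through its shfirefly counts. The median below is that of the list's log2 fold changes. The median was 0.07 with the GC and length correction. The largest rises among genes of at least 5 CPM were those of E2F2, a transcription factor of S phase (1.31, adjusted p = 1.7e-09), CDC25A, a phosphatase that activates cyclin-dependent kinases (1.21, adjusted p = 2.3e-11), DNA2, a replication nuclease (0.89, adjusted p = 2.3e-06), and FIGN, a microtubule-severing enzyme (0.85, adjusted p = 5.3e-06). The largest falls at that level were those of PXDN, a matrix peroxidase (-4.60, adjusted p = 1.2e-14), the phosphatase DUSP1 (-0.83, adjusted p = 4.9e-13), the insulin signalling adaptor IRS2 (-0.82, adjusted p = 4.7e-11) and the carboxypeptidase CPA4 (-0.64, adjusted p = 4.9e-12).

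Targets were also taken by sequence. Of the 13003 coding genes with a 3' UTR, 1282 (9.86%) held an 8mer or a 7mer-m8. Of these 35.3% rose and 25.1% fell, with a median log2 fold change of 0.05, beside 31.3%, 28.6% and 0.02 for the 11721 genes with neither. The values went up with the number of matches, to 41.5% higher and a median of 0.08 in the 118 genes with 2 matches. The 27 genes with at least 3 matches include HMGA2, IGF2BP1, LIN28B and TRIM71. Without these, 11 of 23 rose (47.8%) and 5 fell (21.7%), with a median of 0.22.

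Genes with more matches also have longer 3' UTRs, with a median of 2860 bases in genes with a match and 988 in genes with none. Within the longest tercile of 3' UTRs, 37.2% of genes with a match and 37.0% of genes without one rose. In the middle tercile the shares were 33.8% and 31.6%, and in the shortest tercile 21.6% and 26.3%. With the GC and length correction, the median no longer went up step by step, at 0.0193 for no match, 0.0239 for 1, 0.0133 for 2 and 0.0682 for at least 3, and the share higher was 31.4%, 30.8%, 33.1% and 37.0%. The part of UTR length and base composition in the trend with the number of matches was not tested.

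**Figure D5:**
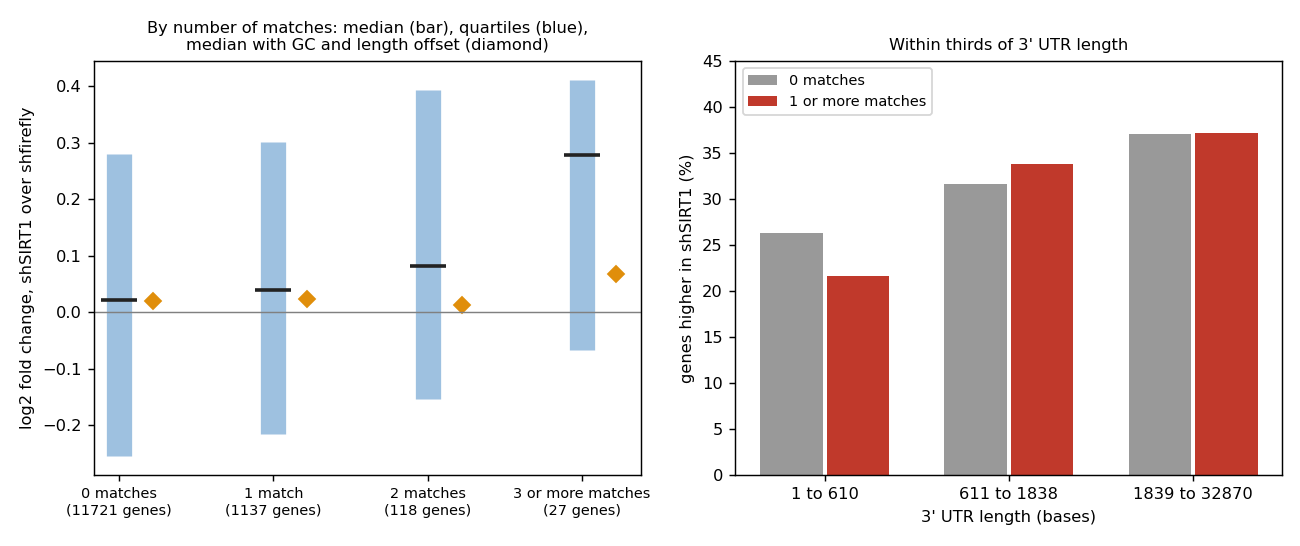
Left, log2 fold change, shSIRT1 over shfirefly, by number of let-7 8mer or 7mer-m8 matches in the 3' UTR (bar, median; blue, quartiles; diamond, median with the GC and length correction); the 27 genes with at least 3 matches, at a median of 0.28, include 4 members. Right, percent of genes higher in shSIRT1 within terciles of 3' UTR length, without and with a match; the pair of bars in the longest tercile, at 37.0% and 37.2%, is nearly level.

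Transcripts that IGF2BP proteins are known to bind were split. Of 18 tested without HMGA2, 10 rose (55.6%, against 26.8% of all tested genes) and 6 fell (33.3%, against 26.0%). The other 2 did not pass, and the median log2 fold change was 0.14, against 0.0047. Among those of at least 5 CPM, MKI67, a marker of cycling cells (0.76, adjusted p = 0.017), and the D-type cyclins CCND3 (0.50, adjusted p = 1.8e-07) and CCND1 (0.35, adjusted p = 1.5e-07) were among those that rose. The MKI67 call was lost without any 1 of 4 libraries, shfirefly 2 and each of the shSIRT1 libraries (adjusted p from 0.0526 to 0.058). The laminin gene LAMB2 (-0.75, adjusted p = 3e-10), CCNG1 (-0.69, adjusted p = 6.8e-12), MYC (-0.49, adjusted p = 3e-08) and CD44 (-0.33, adjusted p = 4.7e-08) fell the most among genes of at least 5 CPM, and H19, below that level, fell further (-1.99, adjusted p = 2.1e-08). MYC is a let-7 target as well, and its mRNA is one that IGF2BP1 was first found to stabilise.

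Other oncofetal and imprinted growth genes moved in both directions. Of 11 tested without the members, 2 rose (18.2%, against 26.8% of all tested genes) and 3 fell (27.3%, against 26.0%). The other 6 did not pass, and the median log2 fold change was -0.12, against 0.0047. The imprinted gene PEG10 (0.36, adjusted p = 2.1e-07) and the fibrillin FBN2 (0.37, adjusted p = 7.7e-07) rose. The trophoblast glycoprotein TPBG fell (-0.80, adjusted p = 2.9e-12). The other 2 counted as lower were below 5 CPM and are named after their values were seen. H19, an imprinted non-coding RNA bound by IGF2BP proteins, fell from 4.17 to 1.05 CPM (adjusted p = 2.1e-08). The fetal serum protein AFP read 0.708 CPM in shfirefly and 0.158 CPM in shSIRT1. It passed the filter on low counts only through its shfirefly counts, so it is described without a test although the tally counts it. IGF2 itself had no counts in any library.

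LIN28B and TRIM71 mark pluripotent and germ cells, so markers of these cells were read beside them. Of 14, 7 had no counts in any library, NANOG, DPPA2, UTF1, TDGF1, PRDM14, DAZL and SOX17, and POU5F1 and SOX2 were at 0.0236 CPM or less. The list's summed level was 2.04 to 2.61 CPM in shfirefly, most of it DPPA4. In shSIRT1 it was 0.978 to 1.47 CPM, most of it ZFP42 and DPPA4, so the sums describe these genes rather than the list. DPPA4 read 2.00 CPM in shfirefly and 0.357 CPM in shSIRT1, and ZFP42 read 0.225 and 0.762 CPM. Each passed the filter on low counts only through the group in which it was higher, so both are described without a test. Chondrocyte markers summed to 59.1 to 65.9 CPM in shfirefly and 67.2 to 68.0 CPM in shSIRT1, most of it SOX9. Of 8 tested, 3 were higher (37.5%, against 26.8% of all tested genes) and 3 lower (37.5%, against 26.0%). PRG4 is counted among the lower ones, with 19, 26 and 19 counts in shfirefly and 15, 7 and 5 in shSIRT1. Its shSIRT1 counts alone would not have passed the filter on low counts. Epithelial markers summed to 309.9 to 319.9 and 356 to 374 CPM, nearly all of it KRT8 and KRT18, with 1 of 4 tested higher. Blood cell markers summed to 1.07 to 1.53 and 0.993 to 1.5 CPM, and neither of the 2 tested passed. The part of these markers in the members' values was not tested.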

How the data were processed

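RNA-seq of SW1353 cells was taken from 1 deposited table. Trimmomatic, STAR and DESeq2, on GRCh38, are named in the submitters' processing notes. The sources used here give no versions, read counter or strand setting. Raw counts per gene are the authors', per the file headers. The authors' log2 fold changes and adjusted p-values, from the same deposited table, are quoted where named. A further 6 per-sample columns of normalized values were not used.

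Genes were filtered (filterByExpr; 16591 of 60691 tested), scaled by TMM (factors 0.948 to 1.048) and tested on group alone with edgeR 4.0.16 (robust quasi-likelihood fit, R 4.3.3), with Benjamini-Hochberg adjustment over all tested genes and a threshold of 0.05. SEs are the absolute log2 fold change over the square root of F. Intervals of count ratios, and the limit of 3 counts that a count of 0 allows, cover counting error only. The procedure was tested on simulated counts. Libraries of a group differed by more than sampling noise (chi-square per gene 2.82 to 6.10, against 57.4 to 89.7 between groups), so each counted as 1 replicate.

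Exon lengths, 3' UTRs and overlapping genes came from GENCODE 29 by Ensembl identifier (58400 genes matched), which may differ from the annotation the authors used, and let-7 sequences from RefSeq (GRCh38.p14). Where the best-ranked coding transcript lacked a 3' UTR, the next with one was used. The members and lists were chosen with earlier results of these data known. Named genes were all members, up to 4 rising and 4 falling genes of each list with a mean of at least 5 CPM, the biogenesis list by role, the 5 genes most like LIN28B, and genes overlapping a member. Some list genes are counted but not reported here by name. Alternatives were RLE, upper-quartile or no scaling factors, DESeq2 1.42.0, 2 other filters, a replicate block, no robust estimation, an offset for transcript GC and length (a spline in each, 5 degrees of freedom, fitted to each library), leaving out each library, and for seed matches the longest UTR or 8mers alone.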

Additional observations from a re-analysis of the deposited data

How the results depend on the processing

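Of the 8 members other than LIN28B and TRIM71, HMGA2, HMGA1, IGF2BP1, ARID3A, ARID3B and DICER1 passed in the same direction under all 16 alternatives. The result of IGF2BP2 differed from the main one under 6 of these and that of IGF2BP3 under 4. TRIM71, which the low-count filter favoured, gave no value with at least 1 CPM in 3 libraries. LIN28B ranged from 1.64 to 1.98 on the log2 scale. IGF2BP2 turned to 0.0334 with library totals alone. The number of genes higher with a seed match was 452 and became 192 with 8mer matches only, by construction. The median log2 fold change was 0.0459 in genes with a match and 0.0211 in genes with none, and the difference reversed to -0.0006 with the GC and length offset together with the replicate block; the cause was not tested. With library totals alone, the median of all genes shifted to 0.13 and the called genes split into 6225 higher and 3021 lower, against 4449 and 4311. The replicate block gave 9176 called genes against 8760. Deviations of same-numbered libraries correlated at 0.0411, -0.0003 and 0.2294, and those of differently numbered libraries at -0.1839 to 0.1645. Whether the numbers pair the libraries cannot be settled from these values. LIN28B, IGF2BP1 and TRIM71 rest on at most 145, 68 and 20 counts per library, which limits their precision.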
